A study of Mus musculus with 32 samples.

Results

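A/J and C57BL/6J are the inbred parents of the AXB/BXA panel of recombinant inbred mice, and their hippocampal transcripts were compared here on 8 arrays of the 32 in the series. The 4 A/J arrays and the 4 C57BL/6J arrays were chosen by the strain name in the sample title. The other 24 arrays carried RNA of BALB/cByJ, C3H/HeJ, DBA/2J, FVB/NJ, SJL/J and the strain that the titles give as hippocampus_129S1SvImJ. All mice were untreated inbred animals kept in a constant environment and killed by cervical dislocation, and no sex or age is stated in the sources used here. For each strain, hippocampal RNA of 6 mice was combined into 1 pool and 1 cDNA. cRNA was made from that cDNA in 2 separate preparations, and each of them was hybridised to 2 arrays of the Affymetrix Murine Genome U74Av2 type. Arrays 1 and 2 of a strain share a preparation, as do arrays 3 and 4. The 4 arrays of a strain are thus technical replicates of 1 pool. Every p-value below measures the spread of preparations and hybridisations. The spread between animals is unknown.

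The hippocampus is a forebrain structure for spatial and contextual memory that also takes part in anxiety-related behaviour. Its principal cells are the glutamatergic pyramidal neurons of the Ammon's horn fields and the granule cells of the dentate gyrus, held in check by GABAergic interneurons. A/J is an albino strain that is known for low activity and high anxiety-like behaviour in unfamiliar places, whereas C57BL/6J is pigmented, more exploratory and the source of the mouse reference genome. Recombinant inbred strains carry fixed mosaics of both parental genomes, so a transcript that differs between the parents can be mapped among their descendants.

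The strains differed most in Gas5, lower in A/J, and in Gnb1, higher in A/J, and Gabra2 was the 1 GABA-related gene past the test. The promoters of these 3 genes are shown as examples, and several other genes differed by more than Gabra2. The sequences run 5' to 3' from 250 bases before to 50 bases after the start of transcription, in the GRCm38.p6 build as RefSeq gives them, which is the C57BL/6J sequence and holds no A/J bases. Gas5 lies on the plus strand at chr1:161034351-161034650 (RefSeq lists 2 windows for it, and the one shown is 73.7% G or C). Gnb1 lies on the plus strand at chr4:155491111-155491410 (70.3% G or C). Gabra2 lies on the minus strand at chr5:71095800-71096099 (70.0% G or C). Capitals mark the motifs searched on both strands. One is GGGCGG, known as the GC box. Another is CCAAT, the box bound by nuclear factor Y. The last is TATAAA, the core of the TATA box. A capital run longer than 6 bases holds overlapping copies.
Gas5: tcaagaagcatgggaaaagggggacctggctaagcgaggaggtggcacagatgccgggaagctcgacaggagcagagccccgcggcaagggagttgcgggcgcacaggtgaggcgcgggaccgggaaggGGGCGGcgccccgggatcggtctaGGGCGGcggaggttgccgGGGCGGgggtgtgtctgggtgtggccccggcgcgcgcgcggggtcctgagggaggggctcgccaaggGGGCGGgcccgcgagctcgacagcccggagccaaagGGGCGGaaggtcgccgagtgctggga
Gnb1: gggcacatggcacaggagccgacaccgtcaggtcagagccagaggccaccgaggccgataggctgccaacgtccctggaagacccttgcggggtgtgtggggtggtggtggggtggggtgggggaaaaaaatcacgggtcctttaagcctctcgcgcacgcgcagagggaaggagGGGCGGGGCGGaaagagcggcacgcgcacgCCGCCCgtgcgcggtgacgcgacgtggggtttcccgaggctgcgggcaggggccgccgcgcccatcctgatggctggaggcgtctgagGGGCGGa
Gabra2: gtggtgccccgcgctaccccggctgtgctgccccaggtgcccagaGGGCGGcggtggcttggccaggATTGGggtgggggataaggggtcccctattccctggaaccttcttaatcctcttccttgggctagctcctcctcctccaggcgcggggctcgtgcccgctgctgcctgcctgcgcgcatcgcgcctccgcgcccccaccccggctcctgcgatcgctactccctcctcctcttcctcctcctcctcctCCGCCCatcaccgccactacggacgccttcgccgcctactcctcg
The Gas5 window held GGGCGG 5 times, the Gnb1 window 4 times and the Gabra2 window 2 times beside 1 copy of the CCAAT box. The TATA box letters were in 0 of these 3 windows. Among 32851 promoter windows of the same length, the GC box was held by 35.7%, the CCAAT box by 37.4% and the TATA box letters by 13.6%.

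Levels are log2 of the deposited signal with signals under 1 set to 1. A strain's mean and SD are over its 2 preparations (n = 2), a difference is A/J minus C57BL/6J with its standard error, and the number of arrays limits the precision of all of them. After a filter on low signal 7453 of the 12422 probe sets that are not controls were tested, and 5660 genes were named among them. The median signal of the 8 arrays lay between 29.4 and 38.2. Arrays of the same strain and preparation correlated at 0.936 to 0.965 across probe sets, arrays of the same strain but the other preparation at 0.919 to 0.954, and arrays of different strains at 0.908 to 0.951. The sense-strand control probe sets stood high on A/J arrays 1 and 2 (log2 7.51 and 7.42) and lower on A/J arrays 3 and 4 (5.38 and 5.35) and on the 4 C57BL/6J arrays (5.11 to 5.64). The titles give arrays 1 to 4 of both strains the same 4 days, so each day holds 1 array of each strain. What was done on that day is not stated.

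In the comparison of A/J with C57BL/6J, limma called 123 of 7453 probe sets (1.65%) at a Benjamini-Hochberg adjusted p under 0.05. A/J was higher on 73 of them (0.979% of those tested) and lower on 50 (0.671%). At an unadjusted p under 0.05 there were 705. With the preparation number as a block, 290 were called (3.89%), 169 higher and 121 lower, and the 123 were among them. The numbers mark the round of cRNA synthesis, and whether the strains were prepared side by side is not stated. Without C57BL/6J preparation 1 the count was 53, and without A/J preparation 1 it was 64. From the preparation 2 arrays of all 8 strains, which leave out the arrays with the high sense-strand controls, 270 were called, 106 of them shared with the 123. In that fit single arrays were the units. Arrays of 1 preparation then count as independent and the spread between preparations is left out, so 270 and 123 are not on the same footing. Centring each array on its median shifted the median difference of all tested probe sets by -0.104, and of the 137 calls then made 48.2% were higher in A/J, against 59.3% of the 123.

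Of the 123 called probe sets, 94 reached 2-fold (60 higher and 34 lower in A/J) and 17 reached 4-fold. On 121 of them the 4 A/J arrays lay entirely outside the 4 C57BL/6J arrays, which was the case for 821 of all tested probe sets (11.0%). The sign was the same on all 4 days for 122 of the 123 (29.4% of all tested). The calls with 1 gene symbol covered 95 genes, 56 higher and 39 lower in A/J. A further 9 called probe sets carried several symbols and 9 had no entry in the annotation.

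**Figure D1:**
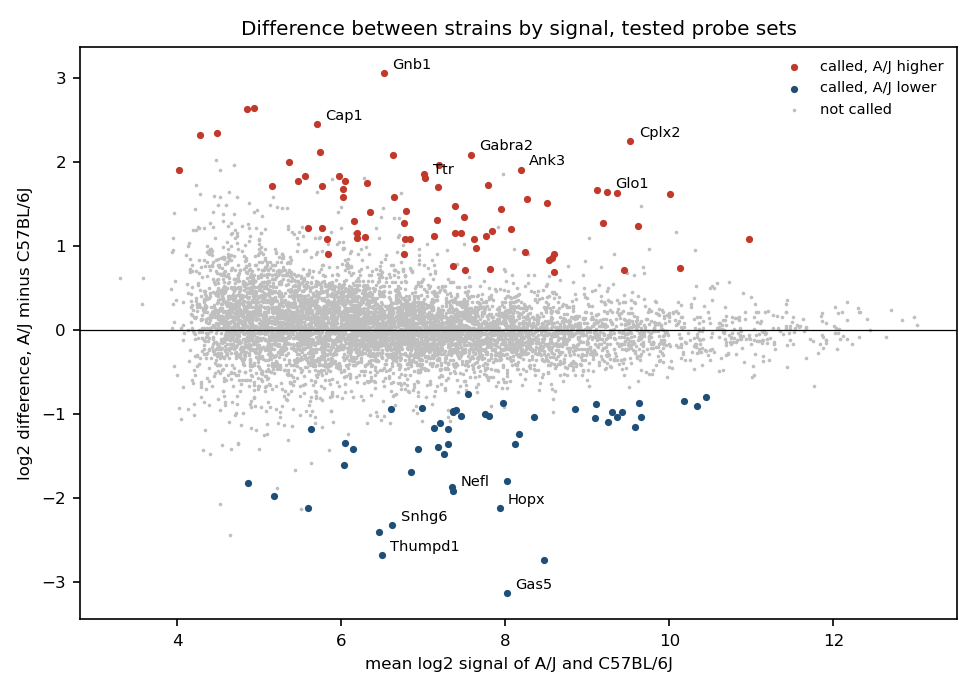
Each point is 1 of the 7453 tested probe sets, with the mean log2 signal of both strains on the horizontal axis and the log2 difference, A/J minus C57BL/6J, on the vertical axis. The 73 called probe sets with higher A/J signal (red) and the 50 with lower A/J signal (blue) run from 3.06 for Gnb1 to -3.13 for Gas5. Grey points run from -2.44 to 2.02 and overlap with the called ones.

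Among signalling genes higher in A/J, Gnb1 led. It encodes a beta subunit of heterotrimeric G proteins, the partners that relay signals from receptors such as those for GABA, glutamate and monoamines. Its leading probe set read 7.94, 8.05, 8.07 and 8.15 on the A/J arrays, against 4.26, 4.99, 5.43 and 5.29 on the C57BL/6J arrays. Every A/J array was high, C57BL/6J array 1 was the lowest, and the strains did not overlap. The means were 8.05 ± 0.08 in A/J and 4.99 ± 0.52 in C57BL/6J, a difference of 3.06 ± 0.23 or 8.35-fold (adjusted p = 1.1e-05). The other Gnb1 probe sets, at higher signal, differed by 1.63 ± 0.18 and 1.62 ± 0.14, so all 3 rose but by unequal amounts. The probe set at 1.63 can read more than 1 transcript.

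Gabra2 encodes the alpha-2 subunit of the GABA-A receptor, the chloride channel of fast inhibition on which benzodiazepines act. It read 8.67, 8.56, 8.60 and 8.67 on the A/J arrays, against 6.33, 6.34, 6.62 and 6.83 on the C57BL/6J arrays. The A/J arrays lay within a narrow band and all C57BL/6J arrays lay far below it. The means were 8.62 ± 0.01 in A/J and 6.53 ± 0.28 in C57BL/6J (difference 2.09 ± 0.22, 4.27-fold, adjusted p = 0.00011). C57BL/6J is known to carry a small intronic deletion in this gene.

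Cplx2 encodes complexin 2, a protein that binds the SNARE complex and sets the readiness of synaptic vesicles to fuse. Its A/J arrays read 10.86, 10.82, 10.67 and 10.27, and its C57BL/6J arrays 8.16, 8.65, 8.38 and 8.42. The lowest A/J array was still above every C57BL/6J array. Cplx2 averaged 10.65 ± 0.26 in A/J and 8.40 ± 0.00 in C57BL/6J (4.75-fold, adjusted p = 0.0014).

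Cap1, a cyclase-associated protein that recycles actin monomers, read 6.75, 6.94, 7.11 and 6.93 on the A/J arrays and 4.22, 4.85, 4.09 and 4.75 on the C57BL/6J arrays. The C57BL/6J arrays were all low and the groups lay apart. The difference was 2.45 ± 0.20 (5.48-fold, adjusted p = 1.6e-05). Ank3, the ankyrin that anchors sodium channels at the axon initial segment, read 9.14 ± 0.15 in A/J and 7.23 ± 0.14 in C57BL/6J on a probe set that can read more than 1 transcript (difference 1.91 ± 0.16, adjusted p = 1.6e-05). Its second probe set differed by 0.11 ± 0.20 and did not pass.

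Itpr2, a receptor that releases calcium from the endoplasmic reticulum, differed by 2.63 ± 0.45 and 1.83 ± 0.43 on probe sets whose suffixes mark possible reading of several transcripts. Dusp8, a phosphatase of stress-activated kinases, rose on both of its probe sets, by 1.86 ± 0.18 and 1.83 ± 0.29. Wnk1, a kinase that regulates chloride cotransporters, had 3 probe sets that did not all point the same way. One probe set rose by 2.00 ± 0.47 with an adjusted p of 0.049, one differed by 1.60 ± 0.47 (adjusted p = 0.15, and 0.028 with the block), and the brightest differed by -0.41 ± 0.20 (adjusted p = 0.57).

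The other genes among the 14 with the largest excess, counted over called genes whose arrays did not overlap, follow. Zfp612 is a zinc finger protein and Zbtb7a a transcriptional repressor, and they differed by 2.64 ± 0.45 and 2.12 ± 0.29. Sdf4, a calcium-binding protein of the Golgi, differed by 2.34 ± 0.41, and the chemokine receptor Ccr6 by 2.32 ± 0.46. C57BL/6J read low in Sdf4 (3.32 ± 0.06), Ccr6 (3.12 ± 0.65), Zfp612 (3.61 ± 0.43) and the first of the Itpr2 probe sets (3.54 ± 0.87). The table carries no detection calls, so the sizes of these differences rest on signals near the low end. Lpl, the lipase that frees fatty acids from lipoproteins, rose by 2.08 ± 0.29 and 1.72 ± 0.28 on its 2 probe sets. Ttr, the thyroid hormone carrier made by the choroid plexus, read 7.92 ± 0.15 in A/J and 6.11 ± 0.22 in C57BL/6J (3.50-fold, adjusted p = 0.00016).

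Gas5 had the largest difference of all tested probe sets. It is a non-coding RNA that hosts small nucleolar RNAs in its introns and accumulates when growth stops. The A/J arrays read 6.38, 6.34, 6.64 and 6.46, against 9.63, 9.63, 9.56 and 9.53 for C57BL/6J. All A/J arrays were low, and within either strain the arrays differed little. The means were 6.45 ± 0.14 in A/J and 9.59 ± 0.06 in C57BL/6J, a difference of -3.13 ± 0.16 or 8.77-fold (adjusted p = 1.5e-07). The suffix of this probe set marks possible reading of more than 1 transcript, and other Gas5 probe sets lay below the signal limit.

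Snhg6, another host of small nucleolar RNA, moved the same way. Its A/J arrays read 5.25, 5.54, 5.54 and 5.50, and its C57BL/6J arrays 7.53, 7.63, 7.97 and 7.98. The A/J arrays were all low, and the difference was -2.32 ± 0.35 (adjusted p = 0.0021). The probe set annotated to Mir686 read 7.11 ± 0.18 in A/J and 9.84 ± 0.07 in C57BL/6J (-2.74 ± 0.23, 6.66-fold, adjusted p = 1.7e-05). RefSeq places Mir686 inside Psmb5, a proteasome subunit named here after its values were seen. The 2 tested probe sets of Psmb5 differed by 0.06 and -0.10 with adjusted p of 1.00 and 0.98. The array reads long transcripts, so these values do not give the level of the mature microRNA.

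Thumpd1, which assists acetylation of transfer RNA, averaged 5.15 ± 0.08 in A/J and 7.83 ± 0.29 in C57BL/6J (-2.68 ± 0.25, adjusted p = 3e-05). Rps4l, a ribosomal protein gene, fell by 2.40 on the log2 scale (5.27-fold), on a probe set that can read related transcripts. Srp9, a subunit of the signal recognition particle, averaged 7.12 ± 0.29 in A/J and 8.92 ± 0.11 in C57BL/6J. Pttg1, the securin that restrains separase in dividing cells, averaged 6.41 ± 0.10 in A/J and 8.28 ± 0.32 in C57BL/6J.

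Hopx, a homeodomain protein that marks neural stem cells and astrocytes of the dentate gyrus, was lower in A/J too. It read 7.21, 7.01, 6.70 and 6.58 on the A/J arrays, against 9.12, 9.20, 8.94 and 8.71 on the C57BL/6J arrays. No A/J array reached a C57BL/6J array, and preparation 2 was the lower one in both strains. The difference was -2.12 ± 0.22 (4.35-fold, adjusted p = 0.0001).

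Nefl, the light neurofilament chain, averaged 6.40 ± 0.01 in A/J and 8.31 ± 0.10 in C57BL/6J (-1.91 ± 0.23, adjusted p = 0.00028). Rab3b, a small GTPase of secretory and synaptic vesicles, averaged 4.53 ± 0.28 in A/J and 6.65 ± 0.10 in C57BL/6J (adjusted p = 0.018). Rgs5, a brake on G protein signalling that marks pericytes, averaged 4.19 ± 0.38 in A/J and 6.16 ± 0.35 in C57BL/6J. Its second probe set differed by -0.66 ± 0.42 (adjusted p = 0.77), and both read low in A/J. Prdx2, a peroxiredoxin that clears hydrogen peroxide, fell by 1.69 on one probe set (adjusted p = 0.002), while the brighter one, which can read several transcripts, differed by 0.38 ± 0.15 (adjusted p = 0.41). Apod, a lipid carrier, and Agt, the precursor of angiotensin, fell by 1.48 and 1.42.

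**Figure D2:**
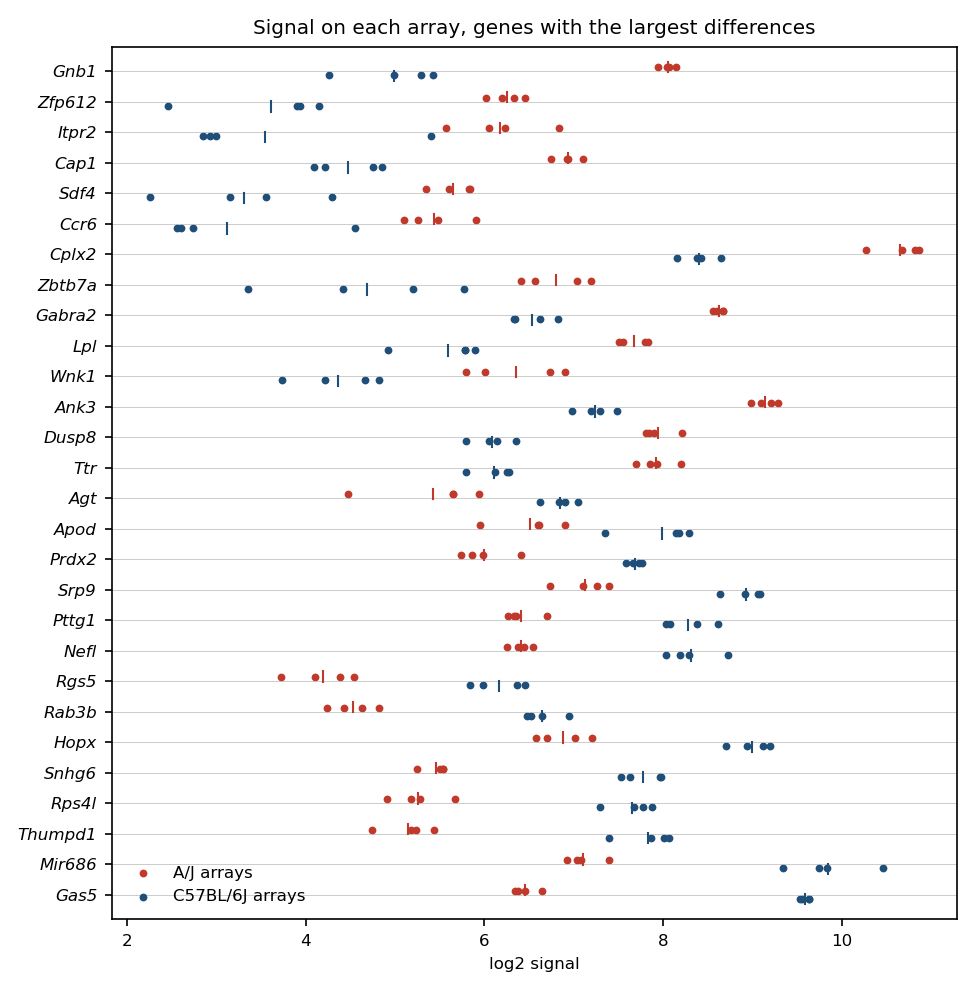
Log2 signal on each array for 14 genes with a large A/J excess and 14 with a large A/J deficit, 1 probe set per gene, with A/J arrays in red above C57BL/6J arrays in blue. Bars mark the mean of 4 arrays. Genes were drawn only if called with arrays that do not overlap, so the separation of the colours is fixed by the choice (Ap1g2 at 1.90 and Cyp2c38 at -1.82 were left out because their arrays overlap), and the gap is narrowest for Itpr2, whose C57BL/6J array 4 read 5.40 against 5.57 on A/J array 4.

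Outside these 28 genes and the list members named below, 30 genes on 31 probe sets were higher in A/J, by 0.69 to 1.90 with a median of 1.16. A further 19 genes on 19 probe sets were lower in A/J, with differences of -1.82 to -0.76.

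Gene lists for neuronal function, chosen with earlier results of these data known, were then read against the whole table, where the median difference was 0.028 and 53.9% of probe sets lay above 0. Of 16 probe sets for glutamate receptors, 0 passed in limma's test (1 at an unadjusted p under 0.05), 13 lay above 0 (81.2%) and the median difference was 0.40. With the block, 1 of the 16 was called, and at the main threshold the nearest was Gria1, an AMPA receptor subunit named after its values were seen, at 0.56 with an adjusted p of 0.10 (0.028 with the block). Of 10 probe sets for GABA synthesis, transport and receptors, 1 rose (Gabra2), with the block Gabrb1 also did (0.66, adjusted p = 0.0087 with the block, named after its values were seen), and the median was 0.53, whereas the GABA-synthesising enzyme Gad1 differed by -0.16 with an adjusted p of 0.88. Of 36 probe sets for synaptic vesicle release, Cplx2 rose and Rab3b fell (5.56% called, against 1.65% of all tested), with a median of 0.16.

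Plasticity genes gave 4 calls of 54 probe sets (7.41%, against 1.65% of all tested), all higher in A/J, with a list median of 0.14. With the block 7 were higher and 1 was lower, Reln, named after its values were seen (-0.89, adjusted p = 0.02 with the block). Camk2a, the alpha chain of the calcium-dependent kinase that is needed for long-term potentiation, rose on both probe sets. Its brighter one read 9.91, 9.80, 9.77 and 9.81 on the A/J arrays, against 8.26, 8.11, 8.82 and 9.02 on the C57BL/6J arrays. Preparation 1 of C57BL/6J was lower than preparation 2, and the strains did not overlap (1.28 ± 0.27, adjusted p = 0.027). Nrgn, which holds calmodulin at dendritic spines, rose by 0.74 ± 0.17 (adjusted p = 0.04), and Pde1a, a calmodulin-dependent phosphodiesterase, by 1.09 ± 0.18 on 1 of its 2 probe sets (adjusted p = 0.0034). Its other probe set differed by 0.97 ± 0.27 (adjusted p = 0.13, and 0.028 with the block), while the called one can read several transcripts.

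Of 53 ion channel probe sets, 4 rose in A/J (7.55%, against 0.979% of all tested) and 0 fell. With the block 7 rose and 1 fell, Kcnma1, named after its values were seen (-0.72, adjusted p = 0.0061 with the block). Besides Itpr2, those called were Clcn4, a chloride and proton exchanger (1.20 ± 0.20, adjusted p = 0.0043), and Kcnj9, a subunit of G-protein-gated potassium channels. Clcn4 rose on 1 probe set, while its second one differed by -0.12 ± 0.23 (adjusted p = 0.98). Kcnj9 read 7.42, 7.88, 7.57 and 7.91 on the A/J arrays, against 6.45, 6.57, 6.61 and 6.66 on the C57BL/6J arrays. The groups lay apart on that probe set (1.12 ± 0.18, adjusted p = 0.0034), while its second one, which can read several transcripts, differed by -0.14 ± 0.54. Of 43 probe sets for G protein subunits and their regulators, the 3 of Gnb1 rose and 1 of Rgs5 fell (9.3% called, against 1.65% of all tested).

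Among 37 probe sets for neuropeptides and their processing, 1 rose and 1 fell (5.41% called, against 1.65% of all tested). Scg5, the chaperone of a prohormone convertase, averaged 9.26 ± 0.06 in A/J and 7.75 ± 0.23 in C57BL/6J (1.51 ± 0.17, adjusted p = 0.00016). Penk, the enkephalin precursor, read 6.92, 7.01, 6.91 and 6.83 on the A/J arrays, against 7.85, 7.96, 7.84 and 7.81 on the C57BL/6J arrays. Its arrays hardly varied within a strain, and the A/J deficit was small but clear of overlap (-0.95 ± 0.18, adjusted p = 0.013). Its second tested probe set differed by -0.79 ± 0.86 and did not pass. Both of these Penk probe sets can read several transcripts. Lists for monoamine and acetylcholine signalling (21 probe sets), immediate early genes (29), glucocorticoid and stress response (19) and the circadian clock (19) gave 0 calls by limma, with medians between -0.05 and 0.00. At an unadjusted p under 0.05 they had 2, 4, 1 and 3 probe sets in that order, and with the block 0, 1, 1 and 0.

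In lists for the basic machinery of the cell the share of calls was read against the 1.65% of all tested probe sets. By limma, the respiratory chain and ATP synthase gave 0 calls of 71 probe sets, proteasome subunits 0 of 42, chaperones 0 of 63 and amyloid and protease genes 0 of 31, with medians between -0.05 and 0.01. At an unadjusted p under 0.05 there were 6, 4, 6 and 4 in that order, and with the block 1 in each. Cytosolic ribosomal proteins gave 1 of 32 (2 with the block), the Rps4l deficit, with a list median of -0.03. Among 72 cytoskeletal probe sets, Ank3 and Cap1 rose, Nefl fell, and so did 1 of 3 probe sets of Mapt, the microtubule-binding protein tau (-0.98 ± 0.20, adjusted p = 0.019). The other Mapt probe sets differed by -0.50 ± 0.18 and 0.66 ± 0.22 and did not pass, although the last passed with the block (adjusted p = 0.022). The gene's direction thus depends on the probe set, and the called one can read several transcripts.

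Of 9 probe sets for non-coding RNAs 4 were lower in A/J (44.4%, against 0.671% of all tested) and 0 higher, with a median of -0.74, in a list made with the Gas5 result known. Besides Gas5, Snhg6 and the Mir686 probe set, this was Meg3, an imprinted maternally expressed RNA. On one probe set Meg3 averaged 8.82 ± 0.31 in A/J and 9.79 ± 0.08 in C57BL/6J (-0.97 ± 0.16, adjusted p = 0.0034). On the brighter probe set it differed by 0.07 ± 0.16. Meg3 was the 1 call among 21 probe sets of imprinted genes (4.76%, against 1.65% of all tested), and with the block 1 was higher and 1 lower.

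Metabolic and protective genes gave calls in both directions. Of 48 probe sets for insulin, lipid and energy handling, 3 rose (2 of Lpl and 1 of Fabp7) and 2 fell. That was 10.4% of the list, against 1.65% of all tested. Fabp7, the fatty acid carrier of radial glia and astrocytes, rose by 0.93 ± 0.18 (adjusted p = 0.013). Those lower were Apod and Acaa1a, a thiolase of peroxisomal fatty acid breakdown (-1.17 ± 0.18, adjusted p = 0.0029). Of 44 antioxidant and glutathione probe sets, both of Glo1 rose and 1 of Prdx2 fell (6.82% called), and with the block 3 rose and 2 fell. Of 28 apoptosis probe sets 1 was called (3.57%). It was that of Bcl2l2, a survival protein of the Bcl-2 family, which rose by 0.76 ± 0.17 (adjusted p = 0.029).

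**Figure D3:**
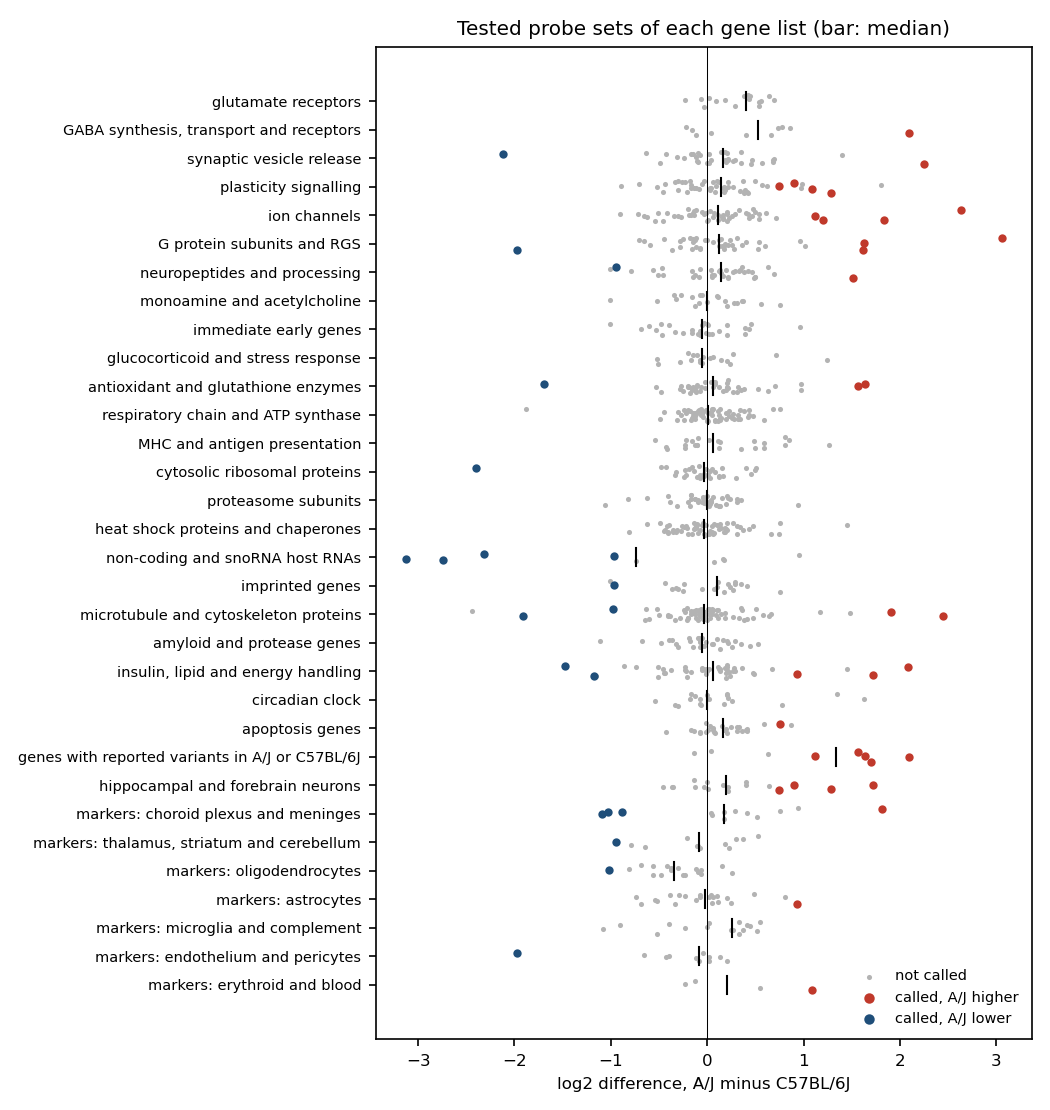
Log2 difference, A/J minus C57BL/6J, for every tested probe set of 32 gene lists, 1 row per list, with black bars at the list medians. Red points were called higher in A/J, blue points called lower and grey points not called; the highest list median is 1.34 for genes with reported variants and the lowest is -0.74 for non-coding RNAs.

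Genes that are known to carry variants in one of these strains were set apart, with 8 tested probe sets for 6 genes, a list made with earlier results of these data known. Of these, 5 rose in A/J (62.5%, against 0.979% of all tested) and 0 fell, and the median difference was 1.34. Glo1 alone gave 2 of the 5. Glo1 encodes glyoxalase 1, which detoxifies methylglyoxal and has been linked to anxiety-like behaviour in mice, and a duplication that holds it is known in A/J and other strains. Its brighter probe set read 10.02, 10.04, 10.12 and 10.05 on the A/J arrays, against 8.53, 8.30, 8.44 and 8.40 on the C57BL/6J arrays. The arrays of each strain were tightly grouped and far apart. The difference was 1.64 ± 0.14 (3.12-fold, adjusted p = 1.7e-05), and the second probe set gave 1.56 ± 0.21.

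Alad, the second enzyme of haem synthesis, whose gene varies in copy number among inbred strains, averaged 8.03 ± 0.18 in A/J and 6.33 ± 0.24 in C57BL/6J (3.25-fold, adjusted p = 0.0002). Nnt, the mitochondrial transhydrogenase that supplies NADPH and is truncated by a deletion in C57BL/6J, read 5.98, 5.52, 6.32 and 6.02 on the A/J arrays. On the C57BL/6J arrays it read 5.17, 5.52, 5.36 and 5.27. The groups touched at array 2, and the difference of 0.63 ± 0.30 did not pass (adjusted p = 0.54). Cox7a2l, a respiratory supercomplex factor with a known short form in C57BL/6J, differed by 0.04 (adjusted p = 1.00).

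Other candidates did not pass either. Gsr, the glutathione reductase studied beside Glo1 for anxiety, averaged 6.96 ± 0.19 in A/J and 6.61 ± 0.33 in C57BL/6J (adjusted p = 0.85). The 3 probe sets of Pdxdc1, a protein with a decarboxylase domain, differed by -0.63 ± 0.27, 0.29 ± 0.75 and 0.62 ± 0.30. The strains differ in their major histocompatibility haplotype, and the 24 tested probe sets of that system gave 0 calls by limma, with 3 at an unadjusted p under 0.05 and 1 under the block. The probe sets of the class I genes H2-D1 and H2-K1 carry a suffix for possible reading of related transcripts, except 1 of H2-K1. H2-D1 differed by -0.13 and -0.11. H2-K1 differed by -0.23 ± 0.18 and, on the probe set without such a suffix, by 1.26 ± 0.47 (adjusted p = 0.34 for the last). Eif2s3y, a Y-linked translation factor, averaged 5.75 ± 0.46 in A/J and 5.65 ± 0.65 in C57BL/6J. The pigment genes Tyr and Tyrp1, the complement gene Hc and Xist lay below the signal limit and were not tested.

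Marker lists of cell types were read beside these results. In pooled tissue, fewer cells of a type and less RNA per cell cannot be told apart. All 16 genes on the array that mark hippocampal and forebrain neurons passed the filter on low signal. Of their 18 probe sets 4 rose in A/J (22.2%, against 0.979% of all tested) and 0 fell, with a median of 0.19. The summed signal was 11213 to 12266 on the A/J arrays and 9235 to 10550 on the C57BL/6J arrays, without overlap. A sum weights bright probe sets most and holds the called ones, so it is not separate from the calls. The calls were Camk2a, Nrgn and Neurod1, a transcription factor of dentate granule cells that averaged 6.63 ± 0.09 in A/J and 4.90 ± 0.19 in C57BL/6J (1.72 ± 0.28, adjusted p = 0.0033). By contrast Prox1, which also marks granule cells, differed by 0.40 (adjusted p = 0.88), and Calb1 and Wfs1, of mature granule and pyramidal cells, by 0.00 and -0.14. These 3 did not pass.

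Oligodendrocyte markers, of which 12 of 13 genes on the array passed the filter, had the opposite sign, with 2 of 18 probe sets above 0 and a median of -0.34. Their summed signal was 5578 to 6093 in A/J and 7094 to 9040 in C57BL/6J, again without overlap. Of the 18, 1 passed (5.56%, against 1.65% of all tested), a probe set of Mag, the myelin-associated glycoprotein that binds axons. It read 7.22, 7.09, 7.35 and 7.50 on the A/J arrays, against 8.39, 8.50, 8.14 and 8.22 on the C57BL/6J arrays. The A/J arrays were all lower (-1.02 ± 0.18, adjusted p = 0.0067), but a second probe set of Mag at lower signal differed by -0.06. The myelin genes Mbp and Mobp differed by -0.38 and -0.06 on 2 probe sets and by -0.69 to -0.38 on 4, and none of these passed. The part of cell composition in the neuronal and myelin results was not tested.

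Choroid plexus and meningeal markers, with 11 of 15 genes past the filter, gave calls in both directions. Of 13 probe sets 4 were called (30.8%, against 1.65% of all tested). Ttr rose, while all 3 probe sets of Ptgds, the prostaglandin D synthase of meninges and oligodendrocytes, fell. The brightest Ptgds probe set read 9.24, 9.33, 9.20 and 8.80 on the A/J arrays, against 10.26, 10.16, 10.13 and 10.14 on the C57BL/6J arrays. A/J was lower on each of the 3 by 0.88 to 1.09 in size, with adjusted p of 0.0059 to 0.026, and each of these probe sets can read several transcripts. The list median of 13 probe sets was 0.17, whereas its summed signal, 3033 to 3479 in A/J and 3993 to 4218 in C57BL/6J, was lower in A/J. Of the 13 probe sets 10 lay above 0 (76.9%, against 53.9% of all tested), and those below were the 3 of Ptgds. At an unadjusted p under 0.05 there were 7, and with the block 2 were higher and 3 lower. Without the block, choroid plexus markers other than Ttr gave 0 calls, among them Folr1 at 0.94 (adjusted p = 0.48) and Kl at 0.17 (adjusted p = 0.99). How far tissue carried along in dissection moves with Ttr or Ptgds was not tested.

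Astrocyte markers gave 1 call of 22 probe sets (4.55%, against 1.65% of all tested), Fabp7, and a median of -0.02, and with the block 2 were higher and 2 lower. Microglia and complement markers gave 0 of 16 by limma (3 at an unadjusted p under 0.05). Their median was 0.26, and 11 of the 16 lay above 0 (68.8%, against 53.9% of all tested). Against that sign, C1qc, a complement subunit, was just short of the threshold at -0.91 (adjusted p = 0.05, and 0.0011 with the block). Endothelial and pericyte markers gave 1 of 11 (9.09%), Rgs5, with Pecam1 and Flt1 between -0.09 and 0.20. Markers of thalamus, striatum and cerebellum gave 1 of 12 (8.33%), Penk, which the hippocampus itself expresses. Among 4 erythroid and blood probe sets, the beta-globin Hbb-b2 rose by 1.09 ± 0.22 (adjusted p = 0.015) while the alpha-globin Hba-a1 differed by -0.13. Summed signals of these 5 lists overlapped between the strains.

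The other 6 strains were set beside both parents. For each called probe set the midpoint between A/J and C57BL/6J was taken and the other strains were counted on A/J's side of it. All 6 were on A/J's side for 29 of the 123 (23.6%, against 11.8% of all tested), and 5 were on it for 40 (32.5%, against 18.7%). None was on it for 3 (2.44%, against 5.35%), which included Penk. The C57BL/6J mean lay outside the range of the other 6 strains for 84 of the 123 (68.3%, against 32.2% of all tested), and the A/J mean for 44 (35.8%, against 21.3%). Both parents lay outside for 21 of the 123 (17.1%) and neither did for 16 (13%), and these 2 counts were not made over all tested probe sets. Because both parents define the calls, these shares describe the members and were not tested.

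**Figure D4:**
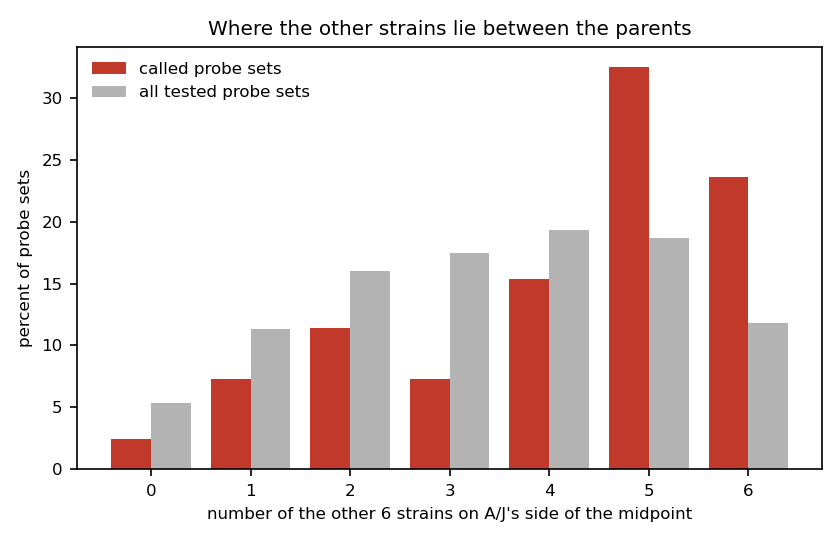
Percent of probe sets by the number of the other 6 strains that lie on A/J's side of the midpoint between A/J and C57BL/6J, for the 123 called probe sets (red) beside all 7453 tested (grey). The called bars are tallest at 5 strains (32.5%) and 6 strains (23.6%).

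Genes with C57BL/6J alone on its side included Gnb1, Cap1, Gabra2, Alad and Kcnj9, low in C57BL/6J, and Mir686, Snhg6 and Pttg1, high in it. The leading Gnb1 probe set read 7.47 to 8.46 in the other 6 strains, a range that holds the A/J mean. Gabra2 read 8.00 to 8.58 there, just under the A/J mean of 8.62. The Mir686 probe set read 7.01 to 7.39 there.

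Where 5 strains sided with A/J, the strain that sided with C57BL/6J was DBA/2J on 36 of 40 probe sets, BALB/cByJ on 3 and SJL/J on 1. The same split was not made for the 1391 tested probe sets with 5 strains on A/J's side, so these counts have no background. On 35 of those 36 A/J was the higher parent, and Rab3b was the exception. Ank3 read 6.97 ± 0.07 in DBA/2J, beside 9.14 ± 0.15 in A/J and 7.23 ± 0.14 in C57BL/6J, while the remaining 5 strains read 8.88 to 9.01. Dusp8, Wnk1, Neurod1 and Camk2a, on at least 1 called probe set each, had this pattern as well. DBA/2J was on A/J's side for 51 of the 123 (41.5%, against 48.0% of all tested). The other 5 strains were on it for 70.7% to 81.3% (against 56.0% to 59.6% of all tested), most often C3H/HeJ.

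Some members split the strains more evenly or set A/J apart. Gas5 was low in A/J, in the strain titled hippocampus_129S1SvImJ (5.87 ± 0.22) and in C3H/HeJ (6.19 ± 0.17), whereas BALB/cByJ, DBA/2J, FVB/NJ, SJL/J and C57BL/6J read 8.52 to 9.59. Thumpd1 was low in A/J, BALB/cByJ (5.67 ± 0.07), C3H/HeJ (5.26 ± 0.08) and DBA/2J (5.32 ± 0.30). Glo1 was high in A/J and in 4 other strains, and low in FVB/NJ (8.53 ± 0.21), SJL/J (8.30 ± 0.13) and C57BL/6J. Hopx had its lowest mean in A/J, with 7.93 ± 0.04 in BALB/cByJ next and at least 8.19 elsewhere. Ptgds was likewise lowest in A/J, with its brightest probe set at 9.37 to 10.51 in the other 6 strains.

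**Figure D5:**
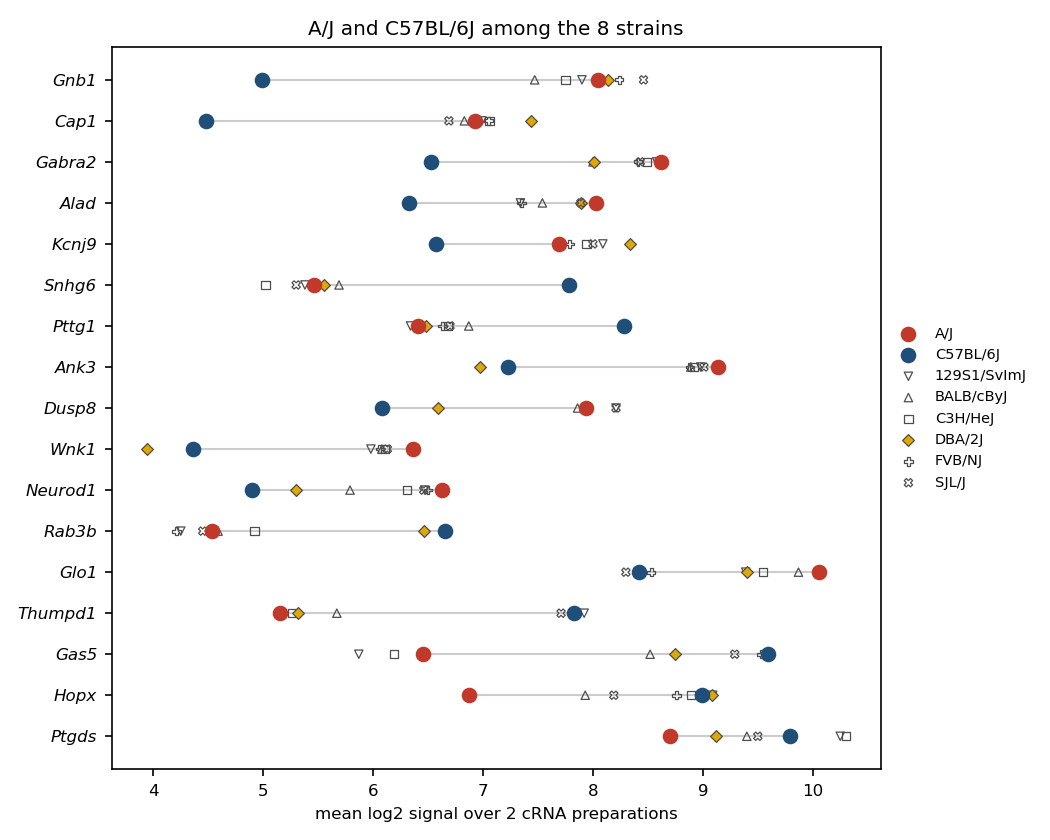
Mean log2 signal over 2 cRNA preparations for 17 genes in A/J (red), C57BL/6J (blue) and the other 6 strains (open symbols, DBA/2J in yellow), 1 called probe set per gene. C57BL/6J stands alone in the upper rows such as Gnb1, Cap1 and Gabra2, DBA/2J joins it for Ank3, Dusp8, Wnk1, Neurod1 and Rab3b, and A/J has the lowest mean for Hopx and Ptgds.

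Leaving out 1 array ended the call of 7 of the named genes. Itpr2 had an adjusted p of 0.16 without C57BL/6J array 3 and Ccr6 one of 0.18 without C57BL/6J array 1. Sdf4 had 0.056 without C57BL/6J array 2, and Bcl2l2 0.051 without A/J array 3. Agt had 0.06 without A/J array 2 and 0.051 without A/J array 3. Nrgn had 0.063 without A/J array 3 and 0.057 without C57BL/6J array 3. Wnk1 lay between 0.051 and 0.066 without A/J array 2 or 3 or without C57BL/6J array 1 or 4. All 7 kept their sign. Leaving out a whole preparation ended the call of 11 to 20 named genes, 23 in all, and the leading genes Gnb1, Cap1, Cplx2, Gabra2, Glo1, Gas5, Mir686, Thumpd1 and Hopx stayed called in each case.

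Compared with other strain pairs fitted in the same model, A/J and C57BL/6J ranked 7th of 28 by calls. A/J gave 126 calls against BALB/cByJ, 44 against SJL/J and 36 against C3H/HeJ. These pairs share the A/J arrays, and their counts were not compared by a test.

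Of the 35 called genes with more than 1 tested probe set, 8 had more than 1 called. Beside the probe set with the smallest p, 34 others of these genes were not called, and 23 of them had its sign (67.6%). Over all 944 tested genes with several probe sets that share was 57.3%. In the order of tested genes along the chromosomes by RefSeq, 3 pairs of called genes were next to each other. They involved 6 of 95 called genes (6.3%), while 3.3% of all tested genes lay next to a called one. The pairs were Cplx2 with Thoc3 (2.25 and 1.10), Neurod1 with Pde1a (1.72 and 1.09) and Penk with Bpnt2 (-0.95 and -1.24). Both members of each pair had the same direction. Thoc3, a subunit of an RNA export complex, and Bpnt2, a phosphatase of sulphate metabolism, were named after their values were seen.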

How the data were processed

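Each deposited value is an intensity on a linear scale for 1 probe set on 1 array. The submitters' processing notes name MAS5, without a version, as what the authors used. A scaling target is not stated there, and the table holds no detection calls. The mean with 2% trimmed from each end was 100.05 to 100.07 on every array, so no further scaling was applied. Scanner files were not analysed here. Signals under 1 were set to 1 (2.14% of values) and log2 was taken. The 66 controls were left out, and the upper 60% of the rest by mean log2 signal was tested (geometric mean signal of at least 21.3).

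The 2 arrays of a preparation were averaged, and 1 model with 8 strain means over 16 values was fitted in R 4.3.3 by limma 3.58.1 (lmFit, then eBayes with a variance trend), leaving 8 residual degrees of freedom. The contrast A/J minus C57BL/6J was adjusted by Benjamini-Hochberg over 7453 probe sets, threshold 0.05, two-sided. The array numbers mark the round of cRNA synthesis per the series design, and arrays of A/J and C57BL/6J with the same number share a day in the titles, which not all other strains do. The numbers were taken to pair the strains because the preparations deviated together. The difference between preparations correlated at 0.37 between A/J and C57BL/6J, and at 0.109 or more over all 28 pairs of strains (median 0.385). The block is given beside a call it changes or a count it moves by over 1.5 times.

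Names came from the platform annotation (10833 non-control probe sets with 1 symbol, 396 with several, 1193 without an entry). Of these, 10839 matched RefSeq by Entrez number, which changed 0 symbols. A suffix _f_at, _g_at, _i_at, _r_at or _s_at marks a probe set that can read several transcripts (24 of the 123 called, 1392 of those tested). The text names the 14 highest and 14 lowest called genes whose arrays do not overlap, up to 6 called members of each list, and a set of candidates. Members and lists were chosen with earlier results of these data known.

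In simulated data of 7453 probe sets, this contrast called 45 of 100 with a log2 change of 1, 78 of 100 with one of 2 and 7 of 7253 unchanged ones. The simulated preparation values varied independently, whereas in the data the preparations deviated together across strains. These shares therefore check the code and do not give the sensitivity or the false calls in these data. Alternatives covered scaling, filter, offset before log2 (16 or 64), block, single arrays as units, variance trend, the strains in the fit, and leaving out each array or preparation. The fits on 1 preparation alone were added after the data were seen.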

Additional observations from a re-analysis of the deposited data

Results flagged for a closer look

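Among 110 groups of 4 arrays for the named genes, 9 held 1 array far from the other 3, where chance gives about 5%, or 1 in 20. In C57BL/6J, Zfp612 read 2.46 on array 1 and 3.90 to 4.15 on the others. Itpr2 read 5.40 on C57BL/6J array 4, close to the A/J level, and 2.85 to 3.00 on the others. Ccr6 read 4.55 on C57BL/6J array 2 and 2.56 to 2.74 on the others. Lpl read 4.92 on C57BL/6J array 2 beside 5.78 to 5.90, and on its second probe set 3.07 on array 1 beside 4.55 to 4.79. Gnb1 read 9.41 on C57BL/6J array 4 beside 9.11 to 9.15, on its brightest probe set, and Apod read 7.35 on C57BL/6J array 2 beside 8.14 to 8.29. In A/J, Clcn4 read 8.54 on array 2 beside 8.70 to 8.73, and Snhg6 read 5.25 on array 1 beside 5.50 to 5.54.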

How the results depend on the processing

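The total of 123 calls (73 higher and 50 lower in A/J, 94 by 2-fold) grew with the preparation block to 290 (169, 121 and 145). With the 8 arrays of these strains as units and day as a block it was 382 (200, 182 and 162). With single arrays as units it was 341 (191, 150 and 151), where arrays of 1 preparation count as independent. From preparation 2 alone it was 270 (128 and 142), and from preparation 1 alone 201 (117, 84 and 145). Those fits also took single arrays as units, and they hold no spread between preparations. Leaving out 1 array or 1 preparation gave 53 to 134 calls, 34 to 79 higher, 19 to 59 lower and 52 to 105 by 2-fold. An offset of 64 before log2, which shrinks differences by construction, left 36 calls of 2-fold. Of the 123 probe sets, 47 were called in all 27 alternatives. Of 46 named genes past the test, 23 were called in all alternatives that tested them, and 0 reversed. Wnk1 and Nrgn were not called in 12 alternatives each and Bcl2l2 in 7. Differences at low signal were limited by the lack of detection calls.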
